A study of Mus musculus with 2 samples.

Results

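The interleukin 6 type signalling and acute phase genes described here are Il6, Il6ra, Il6st, Osmr, Stat3, Socs3, Cebpb, Cebpd, Lcn2 and Saa3. They were picked by name, as genes that act on the transcription factor Stat3 or share its targets, and every gene probe whose RefSeq accession or described symbol named one of them was used. All 10 genes were on the array, with 13 of its 41174 gene probes, and all 10 were among the 16505 detected genes with a ratio on both arrays, of 16790 named. Pancreas RNA was taken at postnatal day 3 from pups with 2 mutant copies of Glis3 (labelled Glis3zf/zf, and elsewhere Glis3KO) and from wild-type pups (Glis3WT). Glis3 encodes a zinc finger transcription factor, and the series asked about its part in the development of pancreatic beta cells. The sources used here do not say how the allele was made, nor the strain or sex of the pups. Each pool held RNA of 2 pups of 1 genotype, and both pools were labelled with Cy3 or Cy5 and hybridised together on 2 arrays, with the dyes exchanged on the second. Because both arrays carry the same RNA, there is 1 sample for each genotype, nothing was measured across animals, and values are given without tests or p-values.

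Interleukin 6 is a cytokine that binds its receptor subunit, encoded by Il6ra, and then the shared signalling subunit encoded by Il6st. Janus kinases bound to that subunit phosphorylate Stat3, which enters the nucleus and switches on target genes, among them Socs3, whose product shuts the signal off. The C/EBP transcription factors act on many of the same genes. In liver the pathway drives the acute phase response, the release of defence proteins into blood, and in the exocrine pancreas it is known for inducing the regenerating proteins, also called pancreatitis-associated proteins, during injury.

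Spot signals are in scanner units, and ratios (mutant to wild type, log2) follow background correction and normalisation within each array, so that a value of 1 means a 2-fold higher level in the mutant and one below 0 a lower level. A gene was called by a rule of size, a mean difference of 2-fold or more, with each array showing 1.5-fold or more the same way. By this rule 38 genes were higher and 25 lower. The technical SD of a mean ratio, from the difference between the arrays, was 0.079 over genes that were not called, and from 0.066 to 0.104 over 10 classes of intensity. The probe for Glis3 had ratios of -0.02 and 0.01 (signals of 115 and 128 in the mutant pool, 155 and 115 in the other), and the sources used here do not place it inside or outside the mutated part, so it does not check the labels. The tissue was checked by acinar genes: 14 of 15 listed were measured, and Cpa1, Ctrb1, Cel and Clps, which encode digestive enzymes and a lipase cofactor, were among the 7 saturated in both pools on both arrays; of the rest Gp2 was called higher (1.93) and Ctrl lower (-1.11).

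None of the 10 genes was called higher or lower in the mutant pool. Over all genes tested, 0.23% were called higher and 0.151% lower, so that a list of this length with no member called is not a result about these genes. Their mean ratios ran from -0.07 for Osmr to 0.23 for Cebpd, with a median of 0.06 against 0.004 over all detected genes. All 10 lay within 0.3 of 0, as did 94.7% of all detected genes. On both arrays 6 were above 0 (Il6st, Stat3, Socs3, Cebpd, Lcn2 and Saa3) and 1, Osmr, was below 0. Of all detected genes 32.5% were above and 30.5% below 0 on both arrays. The ratios of Il6, Il6ra and Cebpb changed sign with the dyes. The largest ratio on any single array was 0.43, for Cebpd. All 13 probes were well above background in both pools on both arrays by the scanner software's flag, and no spot of them was saturated or flagged as an outlier.

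**Figure D1:**
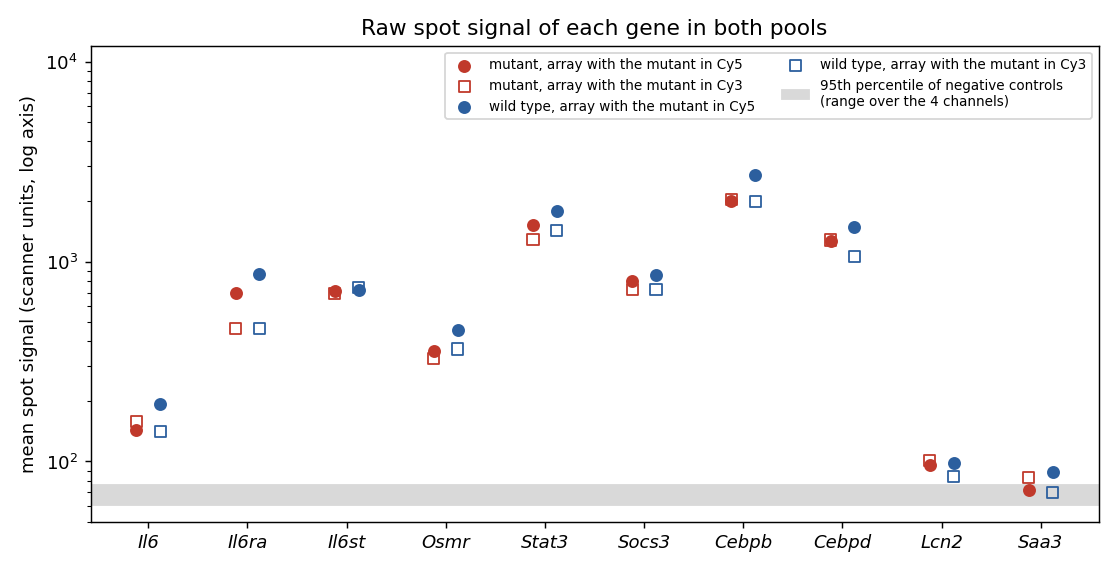
Raw mean spot signal (scanner units, log axis) of the probe read for each of the 10 genes, for the mutant pool in red and the wild-type pool in blue, with the mutant in Cy5 (filled circles) or in Cy3 (open squares); the grey band spans the 95th percentile of the negative control spots in the 4 channels, from 60.8 to 76.2. The signals of both pools overlap for all genes but Il6st and Osmr (both raw mutant signals lay below both wild-type signals in 32.1% of detected genes), those of Lcn2 and Saa3 lie close to the band, and signals of different probes cannot be compared with each other.

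**Figure D2:**
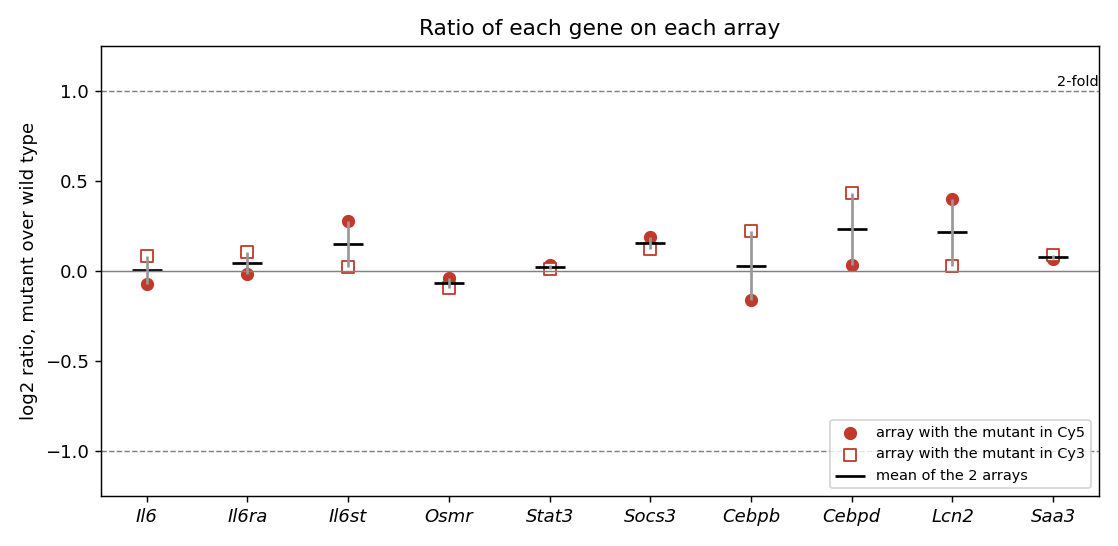
Log2 ratio of mutant over wild type of each gene with the mutant in Cy5 (circles) or in Cy3 (squares), with their mean (black bar) and 2-fold changes as dashed lines. All means lie between -0.07 and 0.23, and the arrays lie farthest apart for Cebpd, Cebpb and Lcn2.

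Several of these genes are targets as well as parts of the pathway, so the 250 bases before their transcription start were searched, on both strands, for the Stat motif TTCNNNGAA and the C/EBP motif TTGCNNAA, which do not overlap in any window printed here. Windows came from RefSeq (build GRCm38.p6), where 9 of the 10 genes had an entry and Cebpd did not. A Stat match was found in 1 of the 9, Socs3, against 7.02% of all 32851 promoter windows of that length, and a C/EBP match in 3 of the 9, Il6, Lcn2 and Saa3, against 9.56%. The Socs3 match, TTCTTAGAA, begins 154 bases before the start, and the C/EBP matches begin 128 bases before that of Il6, 216 before that of Lcn2 and 99 before that of Saa3. The windows with a match are shown because these genes are known targets of the factors encoded by Stat3, Cebpb and Cebpd. Of the 7 regenerating protein genes described further on, 2 have a Stat match, and their windows are added: Reg3b, called higher (TTCTTGGAA, 129 bases before the start), and Reg3d, not called at a ratio of -0.18 (TTCCCAGAA, 238 bases before it). Reg2, Reg3a and Reg3g, also called higher, have no Stat match. A C/EBP match was found in Reg2 (TTATGCAA, 234 bases before the start) and Reg3a (TTGCAGAA, 190 bases before it), and in no other regenerating protein gene. The windows of Reg2 and Reg3a are not printed. Capitals mark the matches, which are a description of letters and not of binding. Positions are chr5:30012864-30013113 (plus strand) for Il6, chr2:32387740-32387989 (minus) for Lcn2, chr7:46715677-46715926 (minus) for Saa3, chr11:117969367-117969616 (minus) for Socs3, chr6:78370635-78370884 (plus) for Reg3b and chr6:78378866-78379115 (minus) for Reg3d, each written 5′ to 3′ toward the start.
Il6: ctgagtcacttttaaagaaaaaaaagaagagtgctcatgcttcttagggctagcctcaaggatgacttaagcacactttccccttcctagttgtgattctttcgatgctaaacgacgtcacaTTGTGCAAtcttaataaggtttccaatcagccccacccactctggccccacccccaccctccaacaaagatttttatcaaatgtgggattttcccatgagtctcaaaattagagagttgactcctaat
Lcn2: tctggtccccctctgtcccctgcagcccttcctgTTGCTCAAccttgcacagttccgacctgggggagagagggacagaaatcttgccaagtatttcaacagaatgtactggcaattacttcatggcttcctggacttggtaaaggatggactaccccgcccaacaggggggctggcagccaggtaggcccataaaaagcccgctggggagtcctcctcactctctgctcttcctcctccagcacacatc
Saa3: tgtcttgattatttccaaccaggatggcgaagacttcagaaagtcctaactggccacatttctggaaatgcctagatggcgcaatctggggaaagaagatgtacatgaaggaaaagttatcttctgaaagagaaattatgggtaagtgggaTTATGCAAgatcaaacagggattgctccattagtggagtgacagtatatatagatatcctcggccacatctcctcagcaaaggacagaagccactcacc
Socs3: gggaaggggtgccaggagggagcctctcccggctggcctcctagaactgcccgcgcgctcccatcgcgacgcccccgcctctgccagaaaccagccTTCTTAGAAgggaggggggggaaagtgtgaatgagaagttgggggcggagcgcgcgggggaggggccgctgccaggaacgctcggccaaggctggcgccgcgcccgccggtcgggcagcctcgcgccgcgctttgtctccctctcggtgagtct
Reg3b: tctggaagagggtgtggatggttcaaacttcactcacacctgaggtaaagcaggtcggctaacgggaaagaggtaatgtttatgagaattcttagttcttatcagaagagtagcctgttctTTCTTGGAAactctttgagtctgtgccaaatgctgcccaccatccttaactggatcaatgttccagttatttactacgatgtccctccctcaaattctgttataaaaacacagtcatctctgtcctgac
Reg3d: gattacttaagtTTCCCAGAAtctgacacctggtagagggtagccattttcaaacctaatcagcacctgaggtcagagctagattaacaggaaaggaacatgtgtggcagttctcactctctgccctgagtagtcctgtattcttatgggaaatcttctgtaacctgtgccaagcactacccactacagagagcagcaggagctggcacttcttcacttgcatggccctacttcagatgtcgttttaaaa

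The cytokine and its receptors stood at nearly the same level in both pools. Probe positions below are those of the files; the sources used here name neither their genome build nor the part of the transcript they match. Signals are given first for the array where Cy5 labelled the mutant and then for that where Cy3 did. On the first of these the median gene spot read 208.2 in the mutant channel and 265.0 in the wild-type channel, so raw mutant signals lie lower there for most genes, and the ratios correct for it. Il6 (NM_031168; chromosome 5, 28470473 to 28470532), the ligand, had signals of 144 and 158 in the mutant pool and of 194 and 141 in the wild type. The pools overlapped, the ratios were -0.07 and 0.085, and their mean was 0.005, closer to 0 than in 95.7% of detected genes.

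Il6ra, the receptor subunit that binds interleukin 6, has 2 probes. The one read for the gene (NM_010559; chromosome 3, 89683005 to 89683064) gave 701 and 463 in the mutant and 865 and 462 in the wild type, with ratios of -0.02 and 0.10. The other (89692753 to 89692812) gave 143 and 196 in the mutant and 195 and 193 in the wild type, with ratios of -0.07 and -0.015. Their mean ratios of 0.04 and -0.04 are opposite in sign and both below the technical SD.

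Il6st (NM_010560; chromosome 13, 108898904 to 108898963), which encodes the signalling subunit gp130 shared by the whole cytokine family, gave 717 and 695 in the mutant and 722 and 745 in the wild type. Every raw mutant signal lay below every raw wild-type signal, as in 32.1% of detected genes, but after normalisation the ratios were 0.28 and 0.02. The mean of 0.15 was thus carried by 1 array. Osmr, the receptor subunit for oncostatin M, had ratios of -0.04 and -0.09 by the probe read for it (NM_011019; chromosome 15, 6602254 to 6602313), from signals of 358 and 327 in the mutant and 454 and 365 in the wild type. Its other probe (6603611 to 6603670) gave -0.07 and -0.10. That probe was dim, with signals of 95.6 and 101.2 in the mutant and 132.5 and 95.8 in the wild type. By the scanner software its mean ratio was -0.26. Osmr was the 1 gene of the 10 below 0 on both arrays, by both probes, at a mean of 0.954 of the wild-type level by the first.

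Stat3 (NM_213659; chromosome 11, 100709372 to 100709431), the factor that carries the signal to the nucleus, had ratios of 0.035 and 0.009. Its signals were 1519.8 and 1286 in the mutant and 1788 and 1435 in the wild type, and the arrays differed less for it than the technical SD. The ratios describe its mRNA. Phosphorylation, by which Stat3 is switched on, is not measured by an expression array. Socs3 (NM_007707; chromosome 11, 117787260 to 117787319), the feedback inhibitor that Stat3 induces, gave 803 and 722 in the mutant and 859 and 723 in the wild type. Its ratios were 0.19 and 0.12, the closest pair among the genes with a mean above 0.1, and the mean of 0.155 is a 1.11-fold difference. As many as 19.3% of detected genes had a mean ratio at least as far from 0.

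For both C/EBP genes the arrays differed from each other by more than the mean ratio. Cebpb encodes the factor first described as binding the Il6 promoter, and its probe read for the gene (NM_009883; chromosome 2, 167199081 to 167199139) gave 2017 and 2045 in the mutant and 2705 and 2009 in the wild type, with ratios of -0.165 and 0.22. Its other probe (167198543 to 167198602) gave 0.18 and 0.03. The probe with the negative ratio on the first array was thus positive on the second, and the means of both probes were 0.03 and 0.10. Cebpd (NM_007679; chromosome 16, 14656128 to 14656187), a partner of Cebpb that rises early in acute phase responses, gave 1270.1 and 1283 in the mutant and 1497 and 1064 in the wild type. Its ratios were 0.03 and 0.43. The mean of 0.23 is the highest of the 10 genes, a 1.17-fold difference, and 9.3% of detected genes had one at least as far from 0; nearly all of it came from the array with the mutant in Cy3.

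Of the secreted acute phase proteins, neither was called, and both probes gave signals just above negative control spots. Lcn2 (NM_008491; chromosome 2, 32317680 to 32317924, a span longer than a probe) encodes lipocalin 2, which withholds iron from bacteria and is released by inflamed epithelium and by neutrophils. It gave 95.9 and 100.9 in the mutant and 97.9 and 84.4 in the wild type, where the 95th percentile of negative controls was 60.8 and 74.1 in the mutant channels and 76.2 and 61.3 in the wild-type channels. The ratios were 0.40 and 0.03 with a mean of 0.21. This value depends on the background correction: it was 0.50 with no offset in the correction and 0.58 by the scanner software's ratios (0.89 and 0.27 on the arrays), below 2-fold in each case. Saa3 (NM_011315; chromosome 7, 40798010 to 40798069) encodes a serum amyloid A made outside the liver, by macrophages, fat and epithelium. It gave 71.9 and 83.5 in the mutant and 88.3 and 70.2 in the wild type, with ratios of 0.065 and 0.09, a mean of 0.08, and 0.26 with no offset. The file also lists an Saa1 accession for this probe, so related transcripts may not be told apart. At signals as low as these the offset shrinks ratios toward 0.

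**Figure D3:**
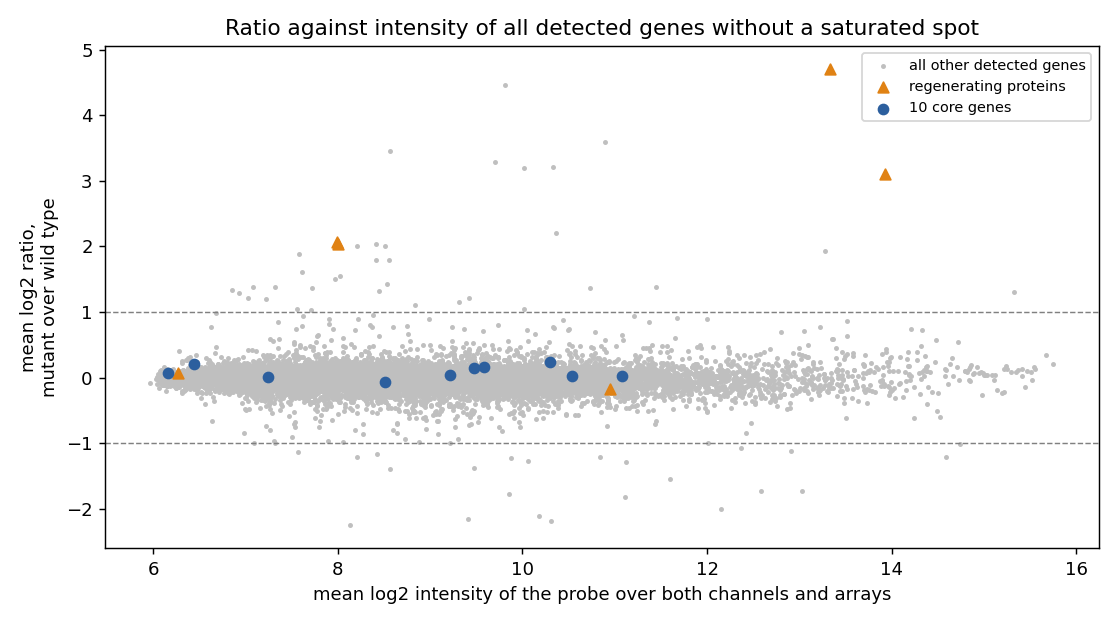
Mean log2 ratio of mutant over wild type against mean log2 intensity of the probe, for all detected genes without a saturated spot (grey), the 10 genes (blue circles) and 6 regenerating protein genes (orange triangles; 2 of them coincide near 2); dashed lines mark 2-fold. The 10 genes lie inside the main band at every intensity, from Saa3 and Lcn2 at the dim end to Cebpb, whereas 4 regenerating protein genes lie above 2-fold.

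The rest of the pathway was followed in lists of 123 further genes. Of these 119 were on the array and 117 detected, 1 was called higher and 0 lower. Their median ratio was 0.01, with 36 genes above and 37 below 0 on both arrays, against 32.5% and 30.5% of all detected genes. At a looser rule, at least 1.5-fold in the mean and the same sign on both arrays, 2 were higher and 1 lower (Fos, C3 and Il1r1), against 0.533% and 0.527% of all genes, and still none of the 10 genes passed.

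None of the 8 detected ligands of the interleukin 6 family was called (median 0.05). Ctf1, which encodes cardiotrophin, had the highest ratio at 0.23 and Il11 followed at 0.11, while Lif, leukaemia inhibitory factor, had -0.15. None of the 5 other receptors of the family was called (median 0.02). They ran from Il11ra1, the interleukin 11 receptor, at -0.18 (-0.04 by its other probe), and Cntfr, which binds ciliary neurotrophic factor, at 0.01, to Il27ra at 0.05 and Lifr at 0.06, where 3 other Lifr probes were detected and 1 of them gave -0.255. The 10 further Jak and Stat genes had a median of -0.01, with Stat5b lowest at -0.19 (-0.001 by its other probe) and Stat5a next at -0.145. Jak3 and Tyk2, both kinases, were highest at 0.05 (the other Jak3 probe gave -0.001).

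Among 15 further inhibitors, which include the other Socs genes, the Pias genes and phosphatases, none was called and the median was -0.005. Cish, a feedback inhibitor induced mainly by Stat5, stood lowest at -0.385, with signals of 988 and 947 in the mutant and 1692.5 and 1263 in the wild type. The mutant values lie below both wild-type values, as in 32.1% of detected genes, and the ratios were -0.51 and -0.26. Ptpn1 followed at -0.13, and Socs1 (0.09) and Pias3 (0.06, and -0.04 by its other probe) were highest.

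Cytokines and receptors that reach Stat3 by other routes had a median of 0.025 over 13 detected genes, with no call. Il10ra, the interleukin 10 receptor, was highest at 0.19 and Csf3r, the receptor for granulocyte colony-stimulating factor, had 0.11, while Lep and Egf were lowest at -0.09 and -0.05. Genes of interleukin 1, tumour necrosis factor and NF-κB, which induce acute phase proteins together with interleukin 6, had a median of 0.015 over 15 genes. Il1r1, the signalling receptor for interleukin 1, was lowest at -0.71, or 1.64-fold lower, with signals of 557.5 and 473 in the mutant and 1068.5 and 860.4 in the wild type. Every mutant signal lay below every wild-type signal, as in 32.1% of detected genes. The ratios were -0.66 and -0.76, but the 2-fold rule was not met. The islet marker genes fell in the same pools: 7 of 11 were called lower (Ins1, Ins2, Gcg, Sst, Ppy, Chga and Pcsk2), and all 9 without a saturated spot were below 0 on both arrays, with a median of -1.08, or -0.67 with the median over each gene's probes (the other Pcsk2 probe gave -0.26 against -1.08). The summed signal of all 11 was 60902 and 46472 in the mutant and 239281 and 232788 in the wild type. This sum includes Ins1 and Ins2, which had saturated spots, so it is capped. In the wild type Ins1 read 61576 and 65244, and Ins2 read 65293 and 65329. The part of the islet genes in the value of Il1r1 was not tested. In bulk RNA, fewer cells of a type and less RNA per cell cannot be told apart. The next lowest gene was Nfkb1 at -0.05, and the highest were Rela at 0.14 (0.09 by its other probe) and Tnfaip3 at 0.09.

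Of 17 other genes known as Stat3 targets, 1 was called. Fos, an immediate early transcription factor, was 2.06-fold higher, with ratios of 1.08 and 1.003. Its signals were 264 and 262 in the mutant and 162 and 128 in the wild type. Both mutant signals lay above both wild-type signals, as in 1.3% of detected genes. Fos also responds to many other inputs. The next was Ier3 at 0.21, and the lowest were Junb, the partner of Fos, at -0.33 (-0.02 by its other detected probe) and Ccnd1, which encodes cyclin D, at -0.29. The median was 0.05, with 7 genes above and 7 below 0 on both arrays.

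None of 31 further acute phase proteins was called. Their median was 0.0, with 10 above and 10 below 0 on both arrays. The highest was C3, the central complement protein, at 0.59, or 1.51-fold higher, with signals of 12999 and 11185 in the mutant and 9940.0 and 8541 in the wild type; its other detected probe gave 0.07. Hp, haptoglobin, followed at 0.485, with 0.485 and 0.486 on the arrays. The lowest were Cp, ceruloplasmin, at -0.52 and the metallothionein Mt1 at -0.27. The macrophage marker genes, which come from cells that also make complement, had a median of 0.30 in these pools, with 8 of 11 above and 2 below 0 on both arrays and none called. Lyz1 and Lyz2 were highest among them at 0.85 and 0.86 (0.48 by the other Lyz2 probe), and C1qa and Mrc1 lowest at -0.17 and -0.13. The summed signal of the 11 macrophage markers was 30448 and 25483 in the mutant and 23188 and 20211 in the wild type. Most of it came from the lysozyme genes. Lyz2 gave 16619 and 13039 in the mutant and 9612 and 9087 in the wild type. Lyz1 gave 3485 and 3085 in the mutant and 2363 and 1940 in the wild type. The sum therefore says little about the other markers. No marker was at 0, and the part of the macrophage markers in the value of C3 was not tested. The neutrophil markers, from cells that make Lcn2, had a median of 0.03 with 6 of 11 above 0 on both arrays (Mpo 0.24, S100a8 0.23, Mmp8 -0.05, Camp -0.13). Their summed signal was 3054 and 3093 in the mutant and 3505 and 3007 in the wild type. Hepatocyte markers had a median of 0.05 over 9 genes (Alb 0.42, Ahsg 0.18, Ttr -0.05, Arg1 -0.31) and adipocyte markers 0.06 over 8 genes (Slc2a4 0.15, Cidec 0.11, Cfd and Pparg 0.03). The 3 other C/EBP genes were not called, with Cebpg at -0.09 (0.11 by both its other probes), Cebpa at 0.03 and Ddit3 at 0.05.

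The regenerating proteins, which the pathway is known to induce, were the 1 pathway-related list with several calls. Of 7 detected genes 4 were called higher, against 0.23% of all genes tested. The list was chosen with earlier results of these data known, so its calls are given as a description only. Reg3b was 26.1-fold higher, with signals of 53061 and 45148 in the mutant and 1880.4 and 2525 in the wild type. Reg2 was 8.56-fold, Reg3a 4.18-fold and Reg3g 4.10-fold higher, Reg4 had a ratio of 0.07 and Reg3d of -0.18, and Reg1 was partly saturated and is given no ratio. By the scanner software's ratios Reg3a and Reg3g had 2.70 and 2.66, against 2.065 and 2.04 here, and the median of the list was 2.68 against 2.05. In the same RNA Socs3, a target of Stat3 with a Stat match in its promoter window, had a ratio of 0.155, Il6 one of 0.005 and Stat3 one of 0.02. Of the 17 other genes known as Stat3 targets, Fos was called higher at 1.04, and their median was 0.05. The part of the pathway in the values of the regenerating proteins was not tested, and Stat3 phosphorylation was not measured. The skeletal muscle markers were also higher in the mutant pool, with 8 of 10 called (Acta1, Myl1, Mylpf, Tnnc2, Tnni2, Tnnt3, Ckm and Myh8) and a median of 3.21 (the other Myh8 probe gave 0.06 against 3.29), and their part in these values was not tested. Their summed signal was 22955 and 20833 in the mutant and 3397 and 2816 in the wild-type pool.

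**Figure D4:**
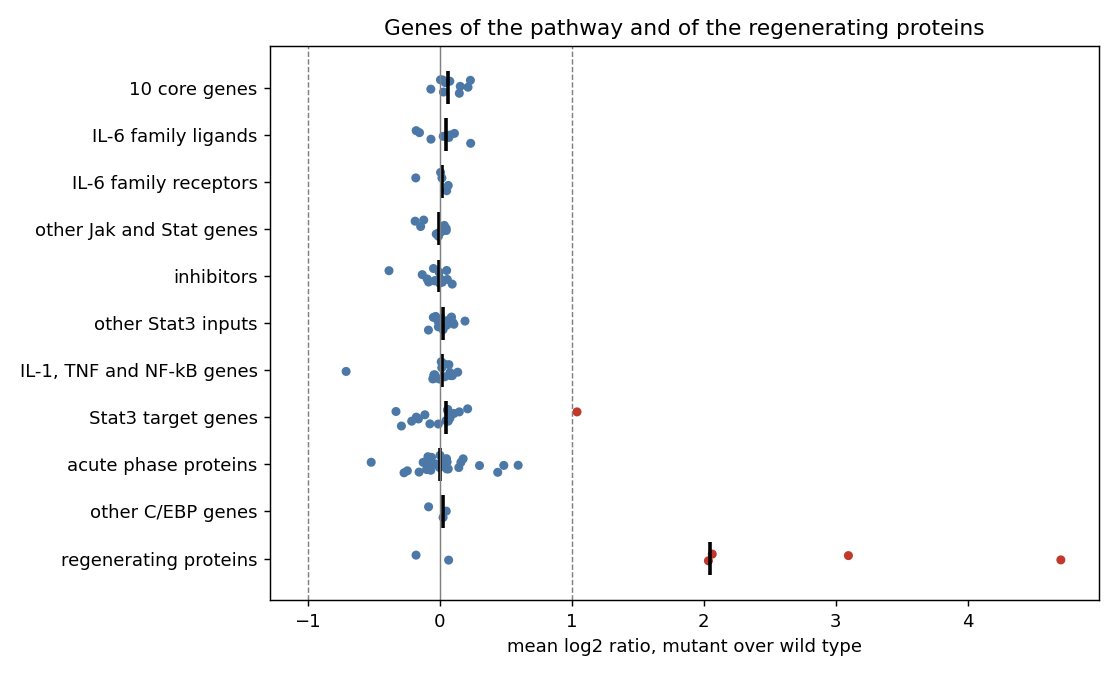
Mean log2 ratio of mutant over wild type of each detected gene without a saturated spot in the 10 core genes, the wider pathway lists and the regenerating proteins, with called genes in red, list medians as black bars and 2-fold changes as dashed lines (points are spread vertically for visibility). Medians lie between -0.01 and 0.06 in the 10 pathway lists shown and at 2.05 in the 6 regenerating protein genes; Fos is the 1 called gene of the pathway.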

How the data were processed

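Per the file headers, each scanner file gives 2 linear intensities for every spot and channel, its mean and its median local background. It also gives the software's log10 ratio (Cy5 to Cy3), which the authors deposited after background subtraction and dye normalisation. Flags per spot (well above background, saturated, outlier) are the software's, per the file headers. Per the labels, Feature Extraction version 7.5 and Rosetta Resolver version 6.0 were used, whereas the file headers record version 8.5.1.1. The deposited series table holds log2 ratios; set against the scanner files, it equals the software's mutant over wild-type ratio within 0.002 in over 99.98% of probes, with a column median of 0.

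Intensities were corrected by normexp (offset 50, which shrinks the folds of dim spots) and normalised by loess within each array with limma 3.58.1 in R 4.3.3, control spots at weight 0 and outlier spots left out (15 and 53). Ratios of both arrays were set in the mutant to wild-type direction and averaged. Tables and figures were made with Python 3.11.15, pandas 2.3.3, numpy 2.4.6 and matplotlib 3.10.9. Probes were named through RefSeq (GRCm38.p6): 23302 of 41174 had a gene name. A gene was read from its brightest probe without a saturated spot, and counted as detected if well above background in at least 1 pool on both arrays. List medians leave out genes with a saturated spot. Named genes were the 10 genes, any called gene, and otherwise the 2 highest and 2 lowest of each pathway list; the marker lists follow the same rule, and a few genes it would name are not reported here. The 10 genes and the lists were chosen with earlier results of these data known. With 2 arrays, their number limits precision.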

Additional observations from a re-analysis of the deposited data

How the results depend on the processing

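Under all 10 alternatives (no offset, median centring, the software's ratios, the deposited table, either array alone, the median over probes, both other filters and the looser rule of size), 0 of the 10 genes were called higher and 0 lower, and 4 regenerating protein genes were called higher. Both other filters keep the same ratios, and all 10 genes were already detected, so these filters could not add a call among them. Over 7 of these settings the ratios of the 10 genes ran from -0.165 to 0.58, and 9 of 70 recomputed ratios moved by more than the SD of the arrays. That count does not measure stability. A ratio of either array alone cannot move by more than this SD, and the deposited table repeats the software's ratios. The median over probes leaves the 7 genes with 1 probe unchanged. Under median centring the small ratios of Stat3 (-0.05), Cebpb (-0.05) and Il6ra (-0.002) turned negative. Of all genes, 42 were lower with no offset and 44 with the software's ratios and with the deposited table, against 25; 38 were higher, and 49 with no offset. At the 1.5-fold rule 88 were higher and 87 lower, and of the wider pathway 2 and 1, against 1 and 0. No paired analysis was possible because each genotype is 1 pool. Signals near the negative controls limit Lcn2, Saa3 and the dimmer probe of Osmr.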

Other observations

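Probes that describe a gene of the pathway without carrying its symbol or a RefSeq accession fall outside the rule and were named after their values were seen. A probe described as the mouse Socs3 protein (TC1561961; chromosome 11, 117788438 to 117788497) had signals of 14573 and 14044 in the mutant pool and 14133 and 17250.1 in the wild type, with ratios of 0.17 and -0.015 and a mean of 0.08. The files write its coordinates in ascending order and those of the Socs3 probe in descending order, so the strand it reads is not settled here. A clone described as a Stat3 product (AK079406; chromosome 11, 100706236 to 100706295) had 311 and 315 in the mutant and 468 and 372 in the wild type. All its mutant values lay below all its wild-type values, as in 32.1% of detected genes. Its ratios were -0.29 and -0.19, whereas the Stat3 probe had a mean of 0.02. Neither was called.

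Markers of other cell types in the same pools not named above are given here with no call among them. None of 8 endothelial markers was called and 6 were below 0 on both arrays, with a median of -0.32 (Flt1 -0.55, Egfl7 -0.42, Pecam1 -0.09, Tie1 -0.06). Of 9 lymphoid markers 8 were above 0 on both arrays, with a median of 0.14 (Cd52 0.64, Cd3e 0.33, Cd2 0.04, Ms4a1 -0.12). The fibroblast and matrix markers had a median of 0.18 over 10 genes (Des 0.64, Pdgfra 0.45 with 0.04 by its other probe, Vim 0.03, Pdgfrb 0.01) and the duct markers 0.16 over 7 genes (Spp1 0.305, Krt7 0.28, Cftr -0.21).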
